A study of Mus musculus with 2 samples.

Results

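Tspo2 encodes translocator protein 2, a membrane protein of the red cell lineage, and is described here by erythroid stage, in non-erythroid cells and by library. It is 1 of 27706 genes in the deposited tables. Tspo2 was chosen by measured values of these same libraries, since they were higher in hypoxia than in control among erythroid and megakaryocyte-erythroid progenitor cells. The differences between the libraries in those cells are therefore a description, and no test is attached to them. The data are single-cell transcriptomes of mouse bone marrow from which cells with lineage markers had been removed with magnetic beads. Each group is 1 library made on the BD Rhapsody system, which counts unique mRNA molecules (UMIs) in each cell. The hypoxia library came from ICR mice that spent 13 days in a low-pressure altitude chamber at 52.93 kPa, the pressure of 5000 m, with 19.5% oxygen in the chamber. The control library came from ICR mice killed when they arrived, and mice of both groups were 7 to 8 weeks old. The control mice were not kept in parallel, so hypoxia cannot be told apart from time, age, handling or library preparation. How many mice each library pools is not stated in the labels.

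Tspo2 is the erythroid relative of Tspo, a protein of the outer mitochondrial membrane that most tissues make. Both belong to a family of membrane proteins that bind cholesterol, and both have been linked to the handling of haem precursors. Red cell precursors make haem in a path that starts and ends in the mitochondrion, with Alas2 at the first step and Fech, which inserts the iron, at the last. As megakaryocyte-erythroid progenitors (MEPs) turn into red cell precursors they lose Gata2, a transcription factor of early progenitors, and later fill with globin.

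Tspo2 (ENSMUSG00000023995.12) lies on the minus strand of chromosome 17, at chr17:48447907-48451522 in GRCm38. Its coding transcript ENSMUST00000024794.11 has 5 exons, and no annotated gene overlaps it. The 229 bases before the start of that transcript, chr17:48451523-48451751 on the minus strand, are shown because this stretch is where motifs of erythroid factors were searched. The sequence is RefSeq's, from build GRCm38.p6. Capitals mark the only GATA, which reads TATC on the printed strand and starts 153 bases before the transcript, and the only CCACCC, the box of Klf1-type factors, which starts 7 bases before it.
Tspo2 promoter: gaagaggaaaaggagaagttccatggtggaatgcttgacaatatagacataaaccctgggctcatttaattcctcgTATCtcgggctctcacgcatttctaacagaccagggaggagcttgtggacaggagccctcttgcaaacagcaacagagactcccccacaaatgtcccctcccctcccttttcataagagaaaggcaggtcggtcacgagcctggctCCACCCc
Motifs were sought on both strands, and these hits did not overlap each other. GATA occurs in 51.8% of 32851 mouse promoter windows of this length, CCACCC in 25.9% and the E-box CANNTG, found once here at 66 bases, in 63.4%. The longer AGATAA was not found in this window and occurs in 9.47% of windows. A match is a description of letters and not of binding.

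The hypoxia library held 6280 cells after filtering, with a median of 21345 UMIs, and the control library 3914 cells with a median of 32166. Tspo2 had 18650 UMIs in kept hypoxia cells and 3941 in kept control cells, which is 139.9 and 32.9 CPM (the UMIs of a gene scaled to all UMIs of the same cells, on the usual scale of RNA sequencing). Clusters were named from marker genes with Tspo2 left out, and erythroid clusters were staged by Gata2 (early at 50 CPM or more) and by summed globins, with limits of 1000 CPM between globin-low and globin-onset and of 20000 CPM between globin-onset and globin-high. The names are rebuilt here and need not match those of the study. Of all cell indices, 23 occurred in both libraries. Erythroid markers led every cluster called erythroid, among them Car1, Ermap, Rhag and the globins. The MEP-like cluster was led by genes that included Gata2, Slc18a2, Pf4 and Itga2b, the last 2 of them megakaryocyte genes.

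Tspo2 was higher in hypoxia at every erythroid stage, and by ratio most so where control was lowest. In MEP-like cells Tspo2 was at 161 CPM in hypoxia (95% interval 143 to 179, from 316 UMIs in 166 cells) and at 3.18 CPM in control (1.59 to 5.69, from 11 UMIs in 267 cells). The ratio was 50.5 (27.8 to 102), and these intervals, like all that follow, cover counting error only and not differences between mice or preparations. The MEP-like cluster came from clustering both libraries together, and the hypoxia library clustered alone gave none. Erythroid progenitor markers in it summed to 3489 CPM in hypoxia and 2294 CPM in control. In early erythroid cells, which still hold Gata2, the level was 181 CPM in 500 hypoxia cells and 16.4 CPM in 417 control cells, a ratio of 11.0 (9.63 to 12.6). Both of these stages stood at a hypoxia level near that of later cells, while control had little Tspo2 there. In globin-low cells the level was 189 CPM in 1700 hypoxia cells and 43.5 CPM in 1449 control cells, a ratio of 4.35 (4.17 to 4.54). In globin-onset cells it was 224 CPM in 932 hypoxia cells and 70.5 CPM in 329 control cells, a ratio of 3.17 (2.95 to 3.42). The ratio was lowest at globin onset, with the levels of both libraries above those of globin-low cells. In globin-high cells the level was 226 CPM in 217 hypoxia cells and 42.6 CPM in control (23.3 to 71.4), where there were 31 cells and 14 UMIs, a ratio of 5.30 (3.14 to 9.74). Globin itself made up 39140 CPM of that stage in hypoxia and 126317 CPM in control, and the part of this difference in the Tspo2 ratio was not tested. Over all 4 erythroid stages the ratio was 4.64 (4.48 to 4.80), from 198 CPM in hypoxia and 42.6 CPM in control.

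**Figure D1:**
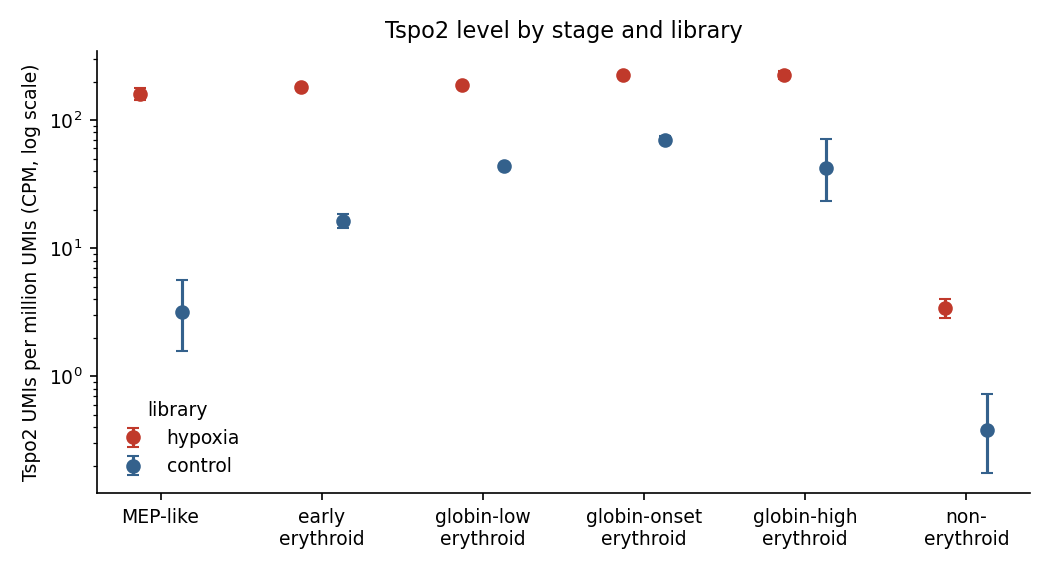
Tspo2 level (CPM, log scale) by stage, with 1 point per library and exact 95% Poisson intervals for counting error. Hypoxia lies between 161 and 226 CPM from MEP-like to globin-high cells, while control runs from 3.18 CPM in MEP-like to 70.5 CPM in globin-onset cells, and non-erythroid cells of both libraries lie below 4 CPM.

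The levels along the lineage come from the same sums that led to the choice of the gene, so their course in each library is also a description. In hypoxia the level was nearly flat. Early over MEP-like cells gave a ratio of 1.12 (0.9996 to 1.27), globin-low over early 1.05 (1.0005 to 1.10), globin-onset over globin-low 1.18 (1.14 to 1.22) and globin-high over globin-onset 1.01 (0.934 to 1.09). The hypoxia order from low to high was MEP-like, early, globin-low, globin-onset and globin-high, in which the first pair and the last pair did not differ beyond counting error. In control the same steps were steep at first, with 5.16 (2.83 to 10.5) for early over MEP-like cells, 2.65 (2.32 to 3.04) for globin-low over early and 1.62 (1.499 to 1.75) for globin-onset over globin-low. Globin-high over globin-onset was 0.604 (0.329 to 1.02) in control, so the drop at the last stage was within counting error. Control cells thus reached their highest level at globin onset, while hypoxia MEP-like cells already held more Tspo2 than control globin-onset cells. Each stage is a single sum per library, and no test of the difference between the courses is possible. Of all Tspo2 UMIs, MEP-like and early erythroid cells gave 1.69% and 12.2% in hypoxia, against 0.279% and 6.12% in control. These stages held a smaller share of cells in hypoxia, at 2.64% and 7.96% of hypoxia cells and 6.82% and 10.7% of control cells. Globin-low cells gave the largest share of Tspo2 UMIs in both libraries, 53.9% in hypoxia and 71.7% in control.

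The difference was spread over the cells of each stage and did not sit in a few of them. In early erythroid cells the median cell had 4 Tspo2 UMIs in hypoxia, and 40.4% of cells had at least 5, while the median control cell had 0 and 0.240% had at least 5. Globin-low cells had a median of 5 UMIs in hypoxia and 2 in control, and globin-onset cells also 5 and 2. The highest single cells had 27 UMIs in hypoxia and 10 in control at the globin-low stage, and 22 and 14 at globin onset. On the CPM scale of single cells, the tenth percentile of hypoxia globin-low cells was 64.6 CPM, near the upper quartile of 64.8 CPM in control. Hypoxia MEP-like cells were more uneven, with a median of 96.7 CPM and quartiles of 0 and 299 CPM. No MEP-like cell gave more than 3.16% of the hypoxia UMIs, whereas 1 control cell with 4 UMIs gave 36.4% of the 11 in control.

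**Figure D2:**
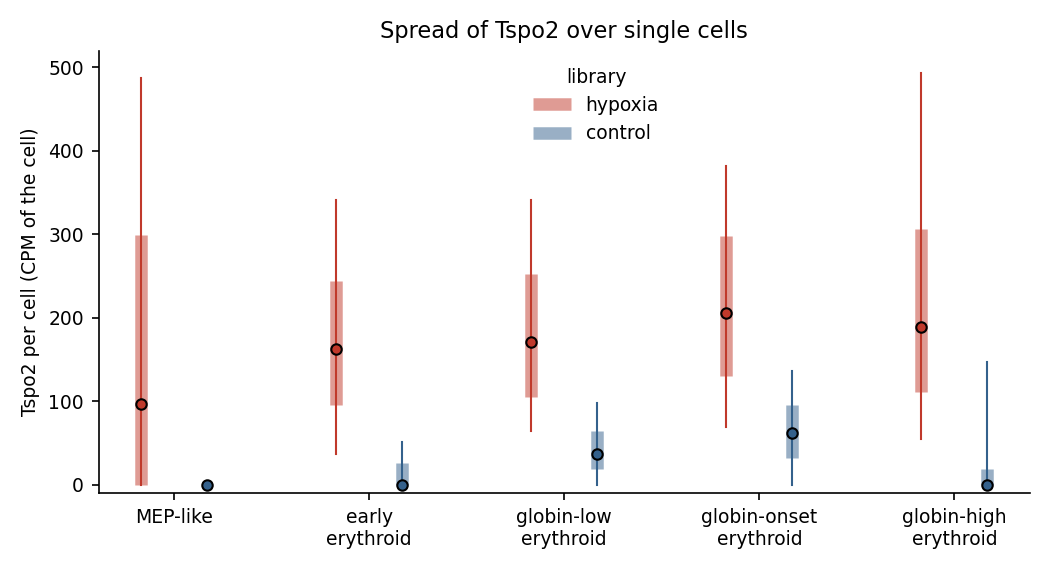
Tspo2 per single cell (CPM of the cell) by stage and library; points are medians, bars run from the lower to the upper quartile and lines from the tenth to the ninetieth percentile of cells. Medians lie between 96.7 and 205 CPM in hypoxia and between 0 and 62.6 CPM in control.

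The share of cells with a Tspo2 UMI depends on depth, and control cells were sequenced more deeply at most stages. Without any correction, 57.8% of hypoxia and 2.996% of control MEP-like cells had a UMI, at median depths of 10526 and 11344 UMIs. In early erythroid cells the shares were 93.2% in hypoxia and 36.7% in control, at 24712 and 34535 UMIs. The hypoxia shares were thus higher at lower depth. In globin-low cells they were 97.4% and 78.7% (hypoxia and control, median depths 30742 and 43613), in globin-onset cells 97.0% and 87.8% (23447 and 34824) and in globin-high cells 92.6% and 25.8% (15816 and 6800). Non-erythroid cells had a UMI in 3.59% of hypoxia and 0.537% of control cells, at 12813 and 15635 UMIs. The erythroid shares are read beside these, and whether these UMIs come from the cells themselves was not tested.

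With every cell thinned to 5000 UMIs, which leaves out shallower cells, hypoxia shares were still higher at each erythroid stage. They were 45.8% (38.0 to 53.7) in hypoxia and 1.13% (0.233 to 3.26) in control MEP-like cells, and 56.3% (51.8 to 60.7) in hypoxia and 8.87% (6.32 to 12.02) in control early erythroid cells. At the later stages hypoxia had 59.2%, 64.6% and 63.6% in globin-low, globin-onset and globin-high cells, against 18.3%, 25.2% and 8.33% in control, the last from 2 of 24 cells. Thinned non-erythroid cells had a UMI in 1.35% (0.905 to 1.93) of hypoxia and 0.188% (0.0228 to 0.678) of control cells. The control MEP-like share overlapped this background within counting error, so Tspo2 in control MEP-like cells was not told apart from background by this share, although its summed level of 3.18 CPM lay above the 0.384 CPM (0.175 to 0.728) of control non-erythroid cells. Thinning left out 468 hypoxia and 241 control non-erythroid cells, 8 and 7 globin-high cells and at most 1 cell of each library at each other stage.

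**Figure D3:**
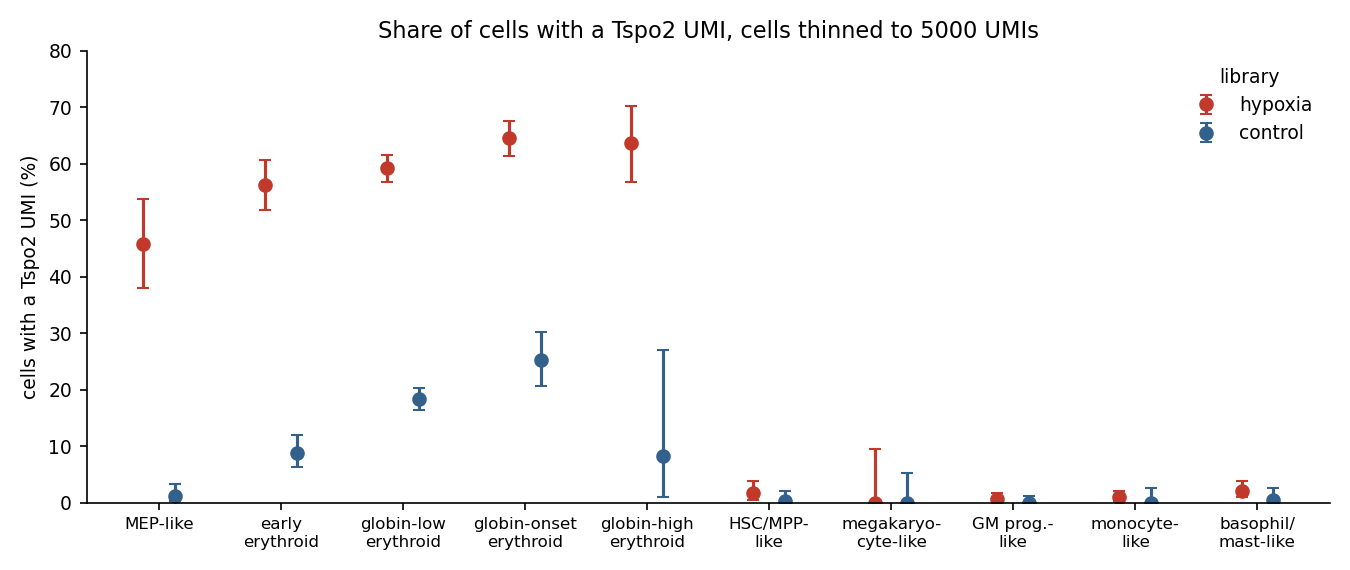
Share of cells with a Tspo2 UMI (%) after thinning each cell to 5000 UMIs, by erythroid stage and for 5 non-erythroid classes, with exact 95% binomial intervals. Hypoxia erythroid stages lie between 45.8% and 64.6%, control erythroid stages between 1.13% and 25.2%, and the non-erythroid classes shown at 2.05% or less. Neutrophil-, eosinophil- and T/NK/ILC-like cells are not shown. In hypoxia 0 of 19, 2 of 35 (5.71%) and 2 of 10 (20%) of them had a UMI, and in control 0 of 24, 0 of 16 and 0 of 9.

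Outside the red cell lineage Tspo2 was scarce in both libraries. Summed over 2619 hypoxia and 1304 control non-erythroid cells, it was at 3.39 CPM (2.83 to 4.03) in hypoxia and 0.384 CPM in control, from 130 and 9 UMIs, a ratio of 8.84 (4.52 to 19.8). Granulocyte-monocyte progenitor-like cells had 2.18 CPM in hypoxia and 0.208 CPM in control, basophil/mast-like cells 3.18 and 0.338 CPM, and HSC/MPP-like cells (stem and multipotent progenitors) 5.02 and 0.818 CPM. Eosinophil-like cells had 9.19 CPM in hypoxia and 9.38 CPM in control, from 4 and 2 UMIs. Control monocyte-, megakaryocyte-, neutrophil- and T/NK/ILC-like cells had 0 UMIs, which allows up to 1.03, 1.27, 9.51 and 15.7 CPM (3 counts over the class), beside 2.97, 6.54, 4.51 and 51.4 CPM in the same hypoxia classes. The T/NK/ILC-like value rests on 14 UMIs in 65 cells, of which 64.3% came from 1 cell. Megakaryocyte-like cells, the other branch that comes from the MEP, had 8 UMIs in 51 hypoxia cells, 75% of them from 1 cell.

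Tspo2 was also set against the summed UMIs of 11 erythroid-restricted genes, among them Car1, Klf1, Epor, Ermap, Rhag and Slc4a1. Non-erythroid cells had 26.9 Tspo2 UMIs per 1000 UMIs of these genes in hypoxia (22.5 to 32.0) and 3.83 in control (1.75 to 7.27). All 4 erythroid stages together had 28.6 (28.2 to 29.0) in hypoxia and 7.34 (7.11 to 7.57) in control. Single non-erythroid classes spread more widely, with 62.2 (34.0 to 104) in hypoxia T/NK/ILC-like cells and 12.1 (5.22 to 23.8) in hypoxia megakaryocyte-like cells, against 0 Tspo2 UMIs beside 26 and 716 UMIs of these genes in the same control classes. The source of the non-erythroid UMIs was not tested. Hypoxia MEP-like cells had 79.7 (71.1 to 89.0), above every other stage of that library, and control MEP-like cells 2.34 (1.17 to 4.19). From early to globin-high cells the ratio was 31.4, 30.4, 26.9 and 17.9 in hypoxia, against 3.36, 7.60, 9.81 and 2.75 in control. Relative to other erythroid RNA, Tspo2 was therefore highest in the earliest hypoxia cells and in the globin-onset control cells.

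Within the MEP-like cluster Tspo2 went with erythroid rather than megakaryocyte RNA in the hypoxia library. Hypoxia cells with a UMI of Car1, carbonic anhydrase 1 of early red cell precursors, had 196 CPM (175 to 219, 135 cells), while those without had 22.4 CPM (10.2 to 42.4, 31 cells). Control cells had 4.65 CPM with Car1 (172 cells) and 0 UMIs without it (95 cells), which allows up to 2.74 CPM. At equal Car1 status the hypoxia level was higher, as it was for each of the 5 genes used. With Ermap, an erythroid membrane protein, Tspo2 was at 220 CPM in hypoxia and 10.2 CPM in control, and without it at 109 and 0.776 CPM. With Klf1, the erythroid transcription factor, it was at 201 and 4.94 CPM in hypoxia and control, and without it at 109 and 0.697 CPM. For the megakaryocyte genes the hypoxia order was turned round. Cells with Pf4, a platelet chemokine, had 64.0 CPM in hypoxia and 5.44 CPM in control, and those without it 195 and 2.12 CPM. Cells with Itga2b, the platelet integrin, had 95.8 CPM in hypoxia and 2.59 CPM in control, and those without it 234 and 5.28 CPM. In control the splits rest on 11 UMIs. Tspo2 was higher there too in cells with Car1, Klf1 or Ermap, with intervals that stood apart for Ermap (4.65 to 19.3 CPM with it, 0.0940 to 2.80 CPM without), while Pf4 and Itga2b gave no common order. The summed level of the 13 erythroid progenitor markers in MEP-like cells was 3489 CPM in hypoxia and 2294 CPM in control, that of the 11 megakaryocyte markers 701 and 735 CPM and that of the 9 MEP markers 2200 and 2409 CPM. Markers of granulocyte-monocyte progenitors (8 genes) summed to 1295 CPM in hypoxia and 796 CPM in control in the same cells, and eosinophil markers (9 genes) to 36.6 and 9.25 CPM, and their part in the Tspo2 difference was not tested. A UMI of a gene depends on depth, and the median depth of these cell sets ran from 9903 to 16244 UMIs.

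The 2 libraries filled the erythroid clusters unequally, so the level was also compared within clusters and at equal weights. Of the 3 globin-low clusters, cluster 0 had 201 CPM in 689 hypoxia cells and 55.3 CPM in 510 control cells, cluster 1 had 156 and 37.8 CPM in 197 and 917 cells, and cluster 3 had 186 and 29.3 CPM in 814 and 22 cells. Their ratios were 3.64, 4.13 and 6.37. By cell shares within each library, cluster 3 was 95.8% hypoxia, cluster 1 11.8% and the globin-high cluster 81.4%, and a cluster of mostly 1 library may reflect that library. The 2 globin-onset clusters had 221 and 227 CPM in hypoxia and 72.3 and 65.0 CPM in control. With the libraries given equal weights over the 7 erythroid clusters, the level was 191 CPM in hypoxia and 43.8 CPM in control, a ratio of 4.36, and over the 4 stages 196 and 44.6 CPM, a ratio of 4.40. The difference was thus almost as large at equal make-up as in the pooled sums.

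Erythroid cells were also ranked by a maturity score per cell, the log2 ratio of late to early erythroid genes without Tspo2 or globins, and put in 5 pooled quintiles. From the least to the most mature quintile Tspo2 was at 172, 185, 188, 212 and 224 CPM in hypoxia, against 20.7, 35.5, 50.5, 60.6 and 70.1 CPM in control. Both levels rose along the score while the ratio fell, at 8.32, 5.21, 3.73, 3.51 and 3.19. The ratio was above 3 in each quintile. A quintile is a range of a score and not a cell type, and 534 of 3349 hypoxia and 418 of 2226 control cells lay within 0.1 of an edge. Binned by their own globin level, cells under 100 CPM of globin had 181 CPM in hypoxia and 33.2 CPM in control, those from 100 to 1000 CPM had 199 and 53.6 CPM, and those from 1000 to 10000 CPM had 217 and 70.0 CPM. From 10000 to 100000 CPM of globin the level was 227 CPM in hypoxia and 60.8 CPM in control. At 100000 CPM or more it was 375 CPM in 26 hypoxia cells and 31.1 CPM in 22 control cells, from 61 and 4 UMIs. Hypoxia cells were therefore higher at like globin content too, with ratios of 3.10 to 5.44 below 100000 CPM.

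**Figure D4:**
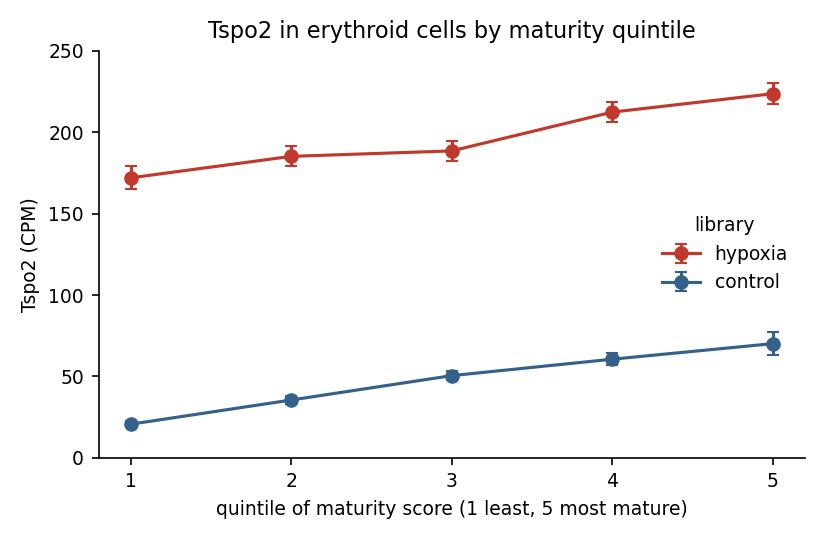
Tspo2 (CPM) by quintile of the erythroid maturity score, with 1 line per library and exact 95% Poisson intervals. Hypoxia lies between 172 and 224 CPM and control between 20.7 and 70.1 CPM, both higher in more mature quintiles.

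Genes of the same biology were then set beside Tspo2. A gene was counted as higher or lower at 1.5-fold or more on the scale of CPM with 10 added, among genes whose UMIs in the 2 libraries summed to 50 or more. By that measure Tspo2 had the highest log2 ratio of 8805 genes in MEP-like cells (3.69) and of 9946 in early erythroid cells (2.85), and ranked 5 of 11073 in globin-low (1.90), 9 of 9589 in globin-onset (1.54) and 12 of 6306 in globin-high cells (2.16). These ranks restate the choice of the gene. In non-erythroid cells it ranked 724 of 12418, with a log2 ratio of 0.37. The added 10 CPM exceeds the levels there, 3.39 CPM in hypoxia and 0.384 CPM in control. Without it the non-erythroid ratio was 8.84 (4.52 to 19.8), so this rank does not mean a small ratio. Of all genes, 4.34% were higher and 3.44% lower in MEP-like cells, 3.72% and 2.25% in early erythroid, 2.18% and 1.26% in globin-low, 2.92% and 2.11% in globin-onset and 25% and 5.03% in globin-high cells. The last pair rests on 31 control cells of low depth.

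Tspo, the sister gene, was at 157, 155, 155, 181 and 247 CPM from MEP-like to globin-high cells in hypoxia, against 140, 131, 131, 153 and 195 CPM in control. Its ratios of 1.11 to 1.27 did not reach 1.5 at any stage. In non-erythroid cells Tspo was at 388 CPM in hypoxia and 328 CPM in control, so it was present where Tspo2 was scarce. With its partners, which include the voltage-dependent anion channels Vdac1 to Vdac3, the ligand Dbi and the adenine nucleotide carriers, 0 of 9 or 10 measured genes were higher or lower at each stage from MEP-like to globin-onset, with medians from -0.08 to -0.01 on the log2 scale beside -0.0022 to 0.036 over all genes. In globin-high cells 5 of 8 were higher (Acbd3, Dbi, Pgrmc1, Vdac1 and Vdac2), at a stage where 25% of all genes were higher. The median of the list was 0.88 there, beside 0.26 over all genes. Dbi, Acbd3 and Pgrmc1 had 4 or 5 control UMIs each there.

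The enzymes of haem synthesis lay mostly within 1.5-fold of control. Of 9 or 10 measured, 1 was higher and 0 lower in MEP-like cells, which was Fech at 89.9 CPM in hypoxia and 54.9 CPM in control. In early, globin-low and globin-onset cells 0 were higher and 0 lower, with medians of 0.12, 0.11 and 0.29 beside 0.04, 0.03 and 0.03 over all genes. Alas2, the erythroid form of the first enzyme, was at 3.84 CPM in hypoxia and 3.49 CPM in control globin-low cells and at 103 and 66.1 CPM at globin onset. It had 1 and 3 UMIs in MEP-like and 12 and 5 UMIs in early erythroid cells of the hypoxia and control libraries, stages at which hypoxia Tspo2 was already at 161 and 181 CPM. In globin-high cells 0 of 9 were higher and 2 lower, Alas2 at 767 CPM in hypoxia and 2044 CPM in control and Fech at 1262 and 1919 CPM. There Tspo2 and Alas2 went opposite ways.

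Carriers and other mitochondrial proteins of iron and haem precursors formed a list of 10 genes. Tmem14c, which helps bring protoporphyrinogen into the mitochondrial matrix, was lower in MEP-like cells (77.7 CPM in hypoxia, 161 CPM in control), early erythroid cells (166 and 290) and globin-low cells (350 and 564). In non-erythroid cells Tmem14c was lower too, at 93.4 CPM in hypoxia and 158 CPM in control, among 1.99% of genes higher and 1.81% lower there. Slc25a37, the iron importer mitoferrin 1, was lower in globin-low cells (59.5 CPM in hypoxia, 103 CPM in control) and in globin-high cells (2137 and 4365). Abcb6, a porphyrin transporter, was higher in globin-high cells, at 99.6 CPM in hypoxia and 48.7 CPM in control. In all, 1, 1, 0, 1 and 2 members were higher and 1, 1, 2, 0 and 1 lower from MEP-like to globin-high cells, of 9 or 10 measured. Over all genes at the same stages, 4.34%, 3.72%, 2.18%, 2.92% and 25% were higher. The shares of all genes that were lower were 3.44%, 2.25%, 1.26%, 2.11% and 5.03%. Of the haem export and breakdown genes, 0 were higher and 0 lower at each erythroid stage, of 4 measured up to globin onset and of 2 in globin-high cells.

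**Figure D5:**
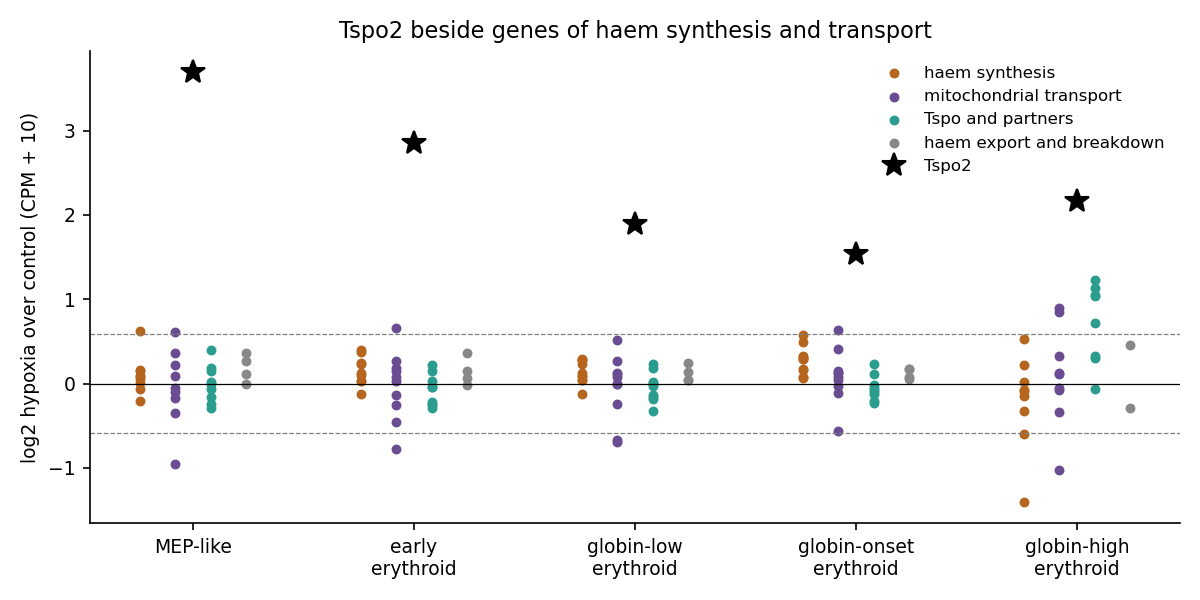
Log2 ratio of hypoxia over control (CPM with 10 added) at each stage for Tspo2 (star) and for each measured gene of the lists on haem synthesis, mitochondrial transport, Tspo and its partners, and haem export and breakdown; dashed lines mark 1.5-fold. Tspo2 lies above every plotted gene, at 3.69, 2.85, 1.90, 1.54 and 2.16 from MEP-like to globin-high cells.

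Genes with the most similar profile were ranked by Pearson's r of log2 levels (CPM with 10 added) over 33 sums, 1 for each cluster and library with at least 50 cells, among 9739 genes with at least 1000 UMIs. The points share their library, so the correlation holds the difference between libraries and depth as well as cell type, and it is a description. Of these genes 29 had r above 0.9. The 10 nearest included Epdr1 (0.97), Slc25a44 (0.95), Col5a1 (0.94), Abcb4 (0.93), Pawr (0.93), Susd2 (0.93), Gm11837 (0.93), Slc25a21 (0.93) and Ermap (0.92). Abcb4 is a phospholipid transporter, and Slc25a44 and Slc25a21 are mitochondrial carriers. Epdr1, a lysosomal ependymin-related protein, was at 55.9, 154, 142, 115 and 110 CPM from MEP-like to globin-high cells in hypoxia, against 13.0, 46.6, 56.4, 44.9 and 48.7 CPM in control. Its gap between the libraries was narrower than that of Tspo2, with log2 ratios of 1.04 to 1.54. Within the hypoxia library alone its r was 0.98 over 18 sums, and within control 0.93 over 15 sums. Over the 12 erythroid sums alone, Abcb4 had the highest r of these 10 genes (0.97). Haem and globin genes were less alike, with 0.58 for Alas2 and 0.69 for Hba-a1, and Tspo had an r of -0.50. Over the 12 erythroid sums alone r was 0.34 for Alas2, 0.41 for Hba-a1 and 0.66 for Tspo.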

How the data were processed

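The deposited values are raw UMI counts per cell and gene, error-corrected and not normalized, made by the authors. Per the file headers they came from version 1.7.1 of the BD Rhapsody whole-transcriptome pipeline, with GRCm38 and annotation GENCODE vM19, and the submitters' processing notes name Bowtie2. As deposited, hypoxia had 6406 cells and 137504361 UMIs and control 3956 cells and 121415081 UMIs. A gene missing from 1 table was taken as 0 there.

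Cells with at least 500 UMIs, 200 genes and under 20% mitochondrial UMIs were kept, which removed 14 hypoxia and 6 control cells, and Scrublet doublets (112 in hypoxia, 36 in control) were left out. Both libraries were clustered together in scanpy 1.11.5 without integration or Tspo2 (2000 variable genes, 30 components, 15 neighbours, leidenalg 0.10.2 at resolution 1, seed 0). A cluster took the class with the most markers (at least 3) among its 30 leading genes, and the stage limits were applied to its mean over the libraries. Tspo2 UMIs were summed per stage and scaled to CPM, and the log2 ratio has 10 CPM added, which understates the ratio of low levels. CPM have exact Poisson, ratios exact conditional and shares Clopper-Pearson 95% intervals, which treat UMIs as independent and cover counting error only. With 1 library per group there is no test, p-value or SE. Interval and direction were tried only on simulated independent Poisson counts. Such counts share the assumption behind the intervals, so they cannot show spread between cells, mice or preparations. Gene positions are from GENCODE M21 on GRCm38.

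Besides Tspo2, genes are named if they are in the lists on Tspo and its partners, haem synthesis, mitochondrial transport or haem export and passed 1.5-fold in a stage, with Tspo and Alas2 always, and if among the 10 nearest profiles. Some members that meet this rule are not reported here. Genes used to split MEP-like cells, and the neighbouring genes, were chosen after the data were seen. The gene, lists and stage limits were chosen with earlier results of these data known. Alternatives were TMM factors (edgeR 4.0.16), 1 CPM added, mean per-cell CPM, thinning, other cell filters, doublets kept, other clusterings, single cells or clusters left out, and staging cell by cell.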

Additional observations from a re-analysis of the deposited data

How the results depend on the processing

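Across 70 alternative values of the Tspo2 log2 ratio (10 to 13 for each stage) hypoxia was higher in every one, from 0.31 to 5.27, and 21 moved beyond the counting error of the value reported. With 1 CPM added in place of 10, the log2 ratio was 5.27 in MEP-like, 3.38 in early, 2.10 in globin-low, 1.65 in globin-onset and 1.67 in non-erythroid cells. A smaller addition understates the ratio of low levels less. All values that follow in this paragraph for single stages are log2 ratios too, except counts of genes and UMIs. Mean per-cell CPM gave 3.99 in MEP-like and 0.43 in non-erythroid cells, and thinning 3.94 in MEP-like and 1.73 in globin-onset cells. Keeping doublets gave 4.13 in MEP-like, 1.97 in globin-low and 0.54 in non-erythroid cells. Resolution 2 gave 4.10 in MEP-like, 3.02 in early and 1.998 in globin-low cells. The stricter cell filter gave 2.67 and staging cell by cell 2.30 in early cells. In globin-low cells TMM factors gave 1.79, staging cell by cell 1.97, each library clustered alone 1.95, and leaving out clusters over 80% of 1 library 1.69. The cause of these shifts, other than that of the added CPM, was not tested. In globin-high cells the alternatives gave 1.81 to 2.74, all within the counting error of the value reported (1.52 to 2.83). With no minimum of UMIs, 518 genes were lower in globin-high cells, against 317, since more genes were counted. Leaving out clusters over 80% of 1 library, and cells with a shared index, was chosen after seeing the data. With each library clustered alone there was no MEP-like cluster in hypoxia and no globin-high cluster in control, and without clusters over 80% of 1 library no globin-high cluster was left, so these gave no value. Staging cell by cell applies only to the 4 erythroid stages. No paired analysis was possible because each group is 1 library, and for the same reason no library could be left out. Depth limits the control values of MEP-like cells (11 UMIs), globin-high cells (14 UMIs) and non-erythroid cells (9 UMIs).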

Other observations

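The well-covered genes near Tspo2 on chromosome 17 were lower in hypoxia or close to control. Within 100 kb, annotation gives 7 other genes, and 3 of them had over 500 UMIs in erythroid cells of each library. Nfya, the A subunit of the CCAAT-binding factor NF-Y, begins 38001 bases beyond the 3' end of Tspo2 and was at 54.3 CPM in hypoxia and 109 CPM in control erythroid cells, a ratio of 0.498 (0.481 to 0.515). Oard1, an ADP-ribose hydrolase, was at 50.1 CPM in hypoxia and 47.1 CPM in control, a ratio of 1.06 (1.02 to 1.11). Unc5cl, whose start lies 3379 bases from that of Tspo2 on the other strand, was at 9.81 CPM in hypoxia and 17.5 CPM in control, a ratio of 0.560 (0.516 to 0.608). Tspo2 over the same cells had a ratio of 4.64, so of these 4 genes it was the only one above 1.1. The other 4 genes had between 5 and 72 UMIs in either library. Among them AC166164.1, an antisense gene that overlaps Apobec2, had 46 UMIs in hypoxia and 11 in control, a ratio of 4.18 (2.13 to 8.95), and Treml1 72 and 43 UMIs, a ratio of 1.67 (1.13 to 2.50). Reads of an antisense gene and its partner are told apart only if strand was used in counting, which the sources used here do not state.

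The levels of Gata1 and Klf1, chosen after the data were seen, are given for the same stages. Gata1, the main erythroid GATA factor, was at 279, 333, 374, 470 and 557 CPM from MEP-like to globin-high cells in hypoxia, against 255, 253, 285, 361 and 380 CPM in control. Klf1 was at 91.9, 186, 241, 315 and 382 CPM in hypoxia, against 81.5, 196, 272, 370 and 435 CPM in control. Gata1 was thus higher and Klf1, from the early stage on, lower in hypoxia, with log2 ratios of at most 0.54 for Gata1 and of -0.07 to -0.23 for Klf1 after the MEP-like stage.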
